A study of Mus musculus with 6 samples.

Results

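The expression of the stromal cadherins and catenins was examined in cultured cardiac fibroblasts (CFs). The genes were chosen by symbol: the cadherins *Cdh2*, *Cdh3*, *Cdh4*, *Cdh6*, *Cdh11* and *Cdh13*, and the catenins *Ctnna1*, *Ctnnb1*, *Ctnnd1* and *Jup*. Of these 10 symbols, 9 had a row among the 19446 genes of the table, and all 9 had at least 10 reads in at least 2 libraries, the filter that left 15948 genes. *Cdh4* was not analysed here.

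RNA-seq had been performed on 2 groups of 3 libraries each, from mice that the labels give as 5 weeks old. For the animals of the explant cultures, the methods of the study give a range of ages around this. The groups are wild type (WT) and CharmeKO, in which a polyadenylation signal inserted into the *Charme* gene, which gives a long non-coding RNA, stops transcription. According to the methods of the study, the animals were C57BL/6J and the cells of all libraries grew out of fragments of atrial tissue, pooled from littermates, on fibronectin in a serum-rich medium. Cells that leave such an explant are a mixed stromal population, and a change in its makeup and a change in RNA per cell cannot be told apart in these bulk libraries.

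Cadherins hold cells together by binding the same cadherin on the neighbouring cell in the presence of calcium. The tail of a classical cadherin binds β-catenin (*Ctnnb1*) or plakoglobin (*Jup*), which bind α-catenin (*Ctnna1*) and through it the actin filaments, while p120-catenin (*Ctnnd1*) binds nearer to the membrane and keeps the cadherin at the surface. β-catenin is also the transcriptional effector of canonical Wnt signalling. Fibroblasts are known for N-cadherin (*Cdh2*) and cadherin-11 (*Cdh11*) in place of the E-cadherin of epithelia.

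The libraries held 38330019 to 46797446 reads assigned to genes. WT 1 and CharmeKO 1 were closer to each other than to any other library (r = 0.986 across genes, against 0.942 to 0.971 for all other pairs of libraries). The replicate number, by which the libraries are called here, held the largest share of the variance for 78.2% of tested genes. The entry without an Ensembl identifier, taken by inference as *Charme*, had 5, 15 and 11 reads in WT and 0, 6 and 3 in CharmeKO, so the libraries hold little of it in either group. All 11 fibroblast markers on the list used had reads in every library. Their levels varied too, with *Col1a1* at 394739 to 818672 normalised reads, *Col1a2* at 215275 to 701122 and *Col3a1* at 148124 to 514618. Of other cell types, macrophage, mesothelial and smooth muscle genes were present and varied between libraries, as described below. Endothelial genes were low and also varied, with *Vwf* at 13.0 to 118 normalised reads, *Egfl7* at 15.8 to 107, *Kdr* at 24.4 to 79.0 and *Pecam1* at 1.74 to 6.41. Cardiomyocyte genes, 5 of 9 listed with a row, were present too. *Tnnt2* ranged from 57.1 to 756.6 normalised reads, *Myl4* from 73.7 to 252.9 and *Actn2* from 0.87 to 53.4. The part of cardiomyocytes in the cadherin and catenin levels was not tested.

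The levels of the 9 genes spanned a wide range. Levels are comparable between genes only per length, and were therefore expressed as reads per kilobase of exon, scaled to the assigned reads of the library (RPKM). *Ctnnb1* had the highest level, at 112.5 ± 9.96 RPKM in the WT and 124 ± 25.7 in the CharmeKO libraries (mean ± SD of 3 each). *Cdh2* followed with 55.3 ± 38.6 in WT and 75.0 ± 31.0 in CharmeKO, and *Ctnna1* with 62.3 ± 11.8 and 64.7 ± 23.8. *Ctnnb1* was above *Ctnna1* in 6 of 6 libraries, whereas *Cdh2* kept no fixed place, below *Ctnnb1* in 5 of 6 libraries and above *Ctnna1* in 4 of 6. *Cdh11* came next, with 26.2 ± 9.47 RPKM in WT and 19.6 ± 13.9 in CharmeKO, below *Ctnna1* and above *Jup* in 6 of 6 libraries. *Jup* was at 9.30 ± 3.41 and 8.51 ± 2.63, and above *Ctnnd1* (5.37 ± 2.09 and 3.63 ± 0.447) in 6 of 6. *Ctnnd1* was above *Cdh3* (4.11 ± 3.90 and 1.99 ± 1.84) in 4 of 6, so these neighbours overlap. The rarest were *Cdh13*, with 0.495 ± 0.687 and 0.391 ± 0.428 RPKM, and *Cdh6*, with 0.0295 ± 0.0241 and 0.0267 ± 0.0349.

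The comparison of CharmeKO with WT asks how these genes differ when *Charme* is lost. Normalised reads are reads divided by the size factor of their library. With limma on log2(normalised reads + 1), 0 of the 9 genes had an adjusted p under 0.05, where 0% of all tested genes had (0 of 15948, lowest adjusted p = 0.9999). At an unadjusted p under 0.05 there were again 0 of 9, against 0.897% of all tested genes (143 genes). edgeR called 0 of the 9 (0% of all tested genes), as did DESeq2 (0.0502% of all), and at an unadjusted p under 0.05 both again gave 0 of 9, against 0.991% of all genes in edgeR and 1.79% in DESeq2. The values of WT and CharmeKO overlapped for all 9 genes, whereas they did not overlap for 4.11% of tested genes. Of the 9, 6 had a lower and 3 a higher mean log2 level in CharmeKO (49.6% of all tested genes were lower), and their median log2 fold change was -0.13, beside 0.0022 over all tested genes.

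**Figure D1:**
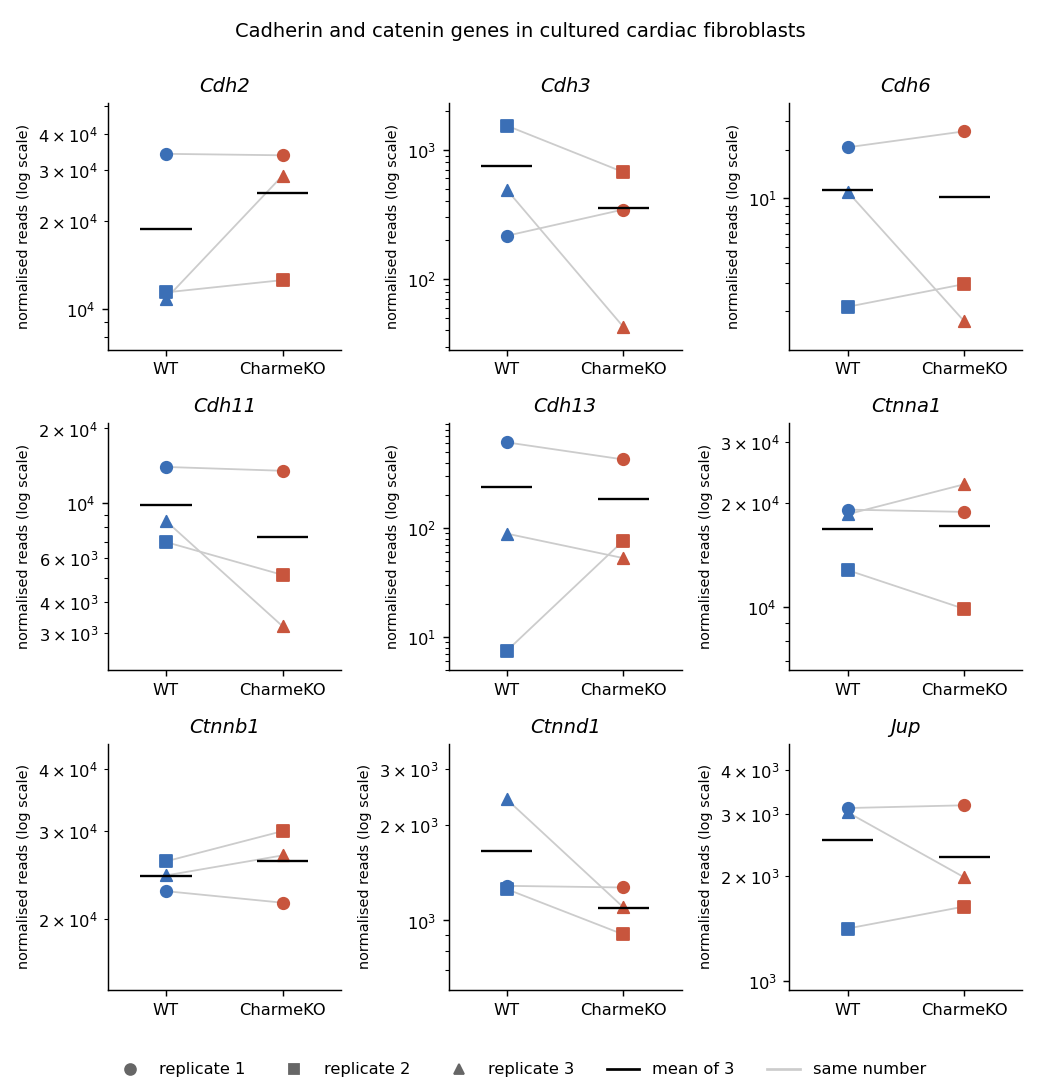
Normalised reads of each gene in the 3 WT and 3 CharmeKO libraries (log axis, a panel per gene), with a grey line between libraries of equal replicate number and a black bar at the group mean. WT and CharmeKO values overlap in every panel, and the libraries numbered 1 (circles) lie close together for most genes.

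*Cdh2* encodes N-cadherin, a type I classical cadherin that also joins fibroblasts to cardiomyocytes. The gene (ENSMUSG00000024304) lies on chromosome 18 from 16588877 to 16809246 on the minus strand (GRCm38). It had 34239, 11370 and 10812 normalised reads in WT 1, 2 and 3 and 33843, 12538 and 28784 in CharmeKO 1, 2 and 3. The libraries numbered 1 and CharmeKO 3 were thus high, and the other 3 libraries were about alike at a lower level. The log2 fold change was 0.51 (SE 0.571, 95% interval -0.86 to 1.88, limma adjusted p = 0.9999). Between libraries of equal number, it differed by -0.017, 0.14 and 1.41 on the log2 scale, so that the higher mean of CharmeKO comes from number 3.

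*Cdh11* encodes cadherin-11, a type II classical cadherin of mesenchymal cells. It lies on chromosome 8 from 102632095 to 102785642 (ENSMUSG00000031673), where the spans of 4 other annotated genes overlap its span on the same strand. Overlap of exons, and any loss of reads from it, was not examined. Its values were 14000, 6980 and 8486 normalised reads in WT 1, 2 and 3 and 13511, 5148 and 3199 in CharmeKO 1, 2 and 3. CharmeKO 2 and 3 were the lowest of the 6 libraries, while CharmeKO 1 was almost at the level of WT 1. The log2 fold change was -0.63 (SE 0.549, 95% interval -1.95 to 0.68, limma adjusted p = 0.9999). It was lower in CharmeKO at all 3 replicate numbers, by differences of -0.051, -0.44 and -1.41.

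*Cdh11* and *Ctnnd1* were the 2 of 9 genes that were lower at all 3 replicate numbers (22.2%), and 0 of 9 were higher. Among all tested genes, 14% were lower and 16.4% higher at all 3, so these counts do not set the 9 genes apart. The replicate number was also entered as a block, since deviations from the group means correlated at equal numbers. The r was 0.762, 0.514 and 0.217 at numbers 1, 2 and 3. At number 3 it was below that of WT 2 with CharmeKO 3 (0.222), so number 3 is only weakly shown to be a pair. In limma with the replicate block, *Cdh11* had a log2 fold change of -0.63 with an SE of 0.283, an unadjusted p of 0.0820 and an adjusted p of 0.7997. DESeq2 with the block gave *Cdh11* an unadjusted p of 0.0344, and 2 of the 9 genes an unadjusted p under 0.05 where 5.59% of all tested genes had it. It gave 0 of the 9 an adjusted p under 0.05, against 0.401% of all tested genes.

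**Figure D2:**
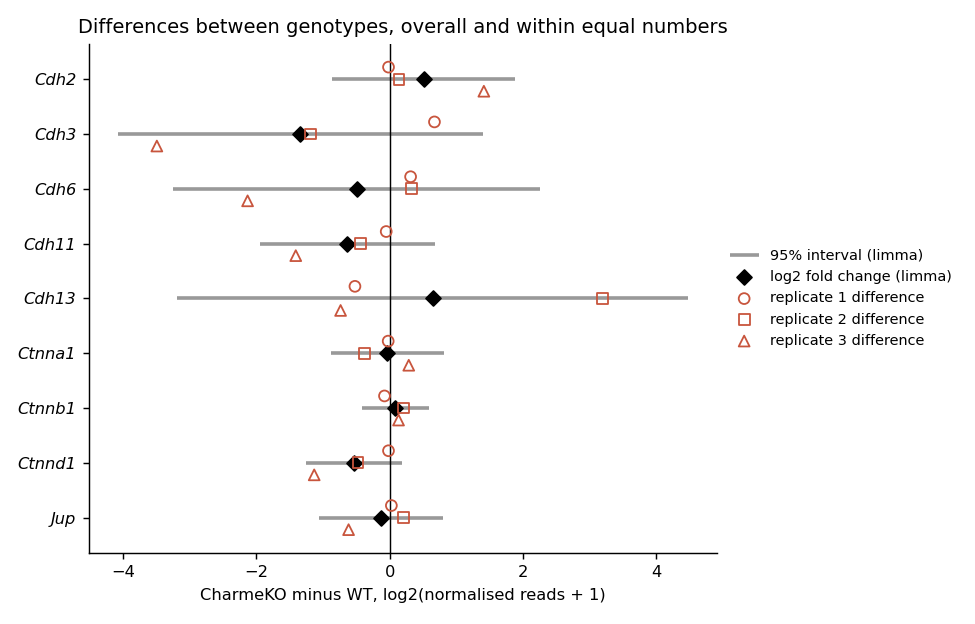
Difference between CharmeKO and WT in log2(normalised reads + 1) for each gene, as the limma log2 fold change (black diamonds) with its 95% interval (grey lines, n = 3 libraries per group) and as the difference between libraries of equal replicate number (open symbols). All 9 intervals include 0, and the differences of replicate 1 lie closest to 0 for 9 of the 9 genes.

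*Cdh3* encodes P-cadherin, a type I cadherin best known from epithelia. The gene (ENSMUSG00000061048) is on chromosome 8 from 106510891 to 106557297, on the plus strand. It had 216, 1531 and 489 normalised reads in WT 1, 2 and 3 and 344, 670 and 42.6 in CharmeKO 1, 2 and 3. WT 2 was the highest and CharmeKO 3 the lowest library, 35.9-fold apart. The log2 fold change was -1.34 (SE 1.14, 95% interval -4.08 to 1.41, limma adjusted p = 0.9999), with differences of 0.67, -1.19 and -3.49 at replicate numbers 1, 2 and 3. The genes whose centred log2 profile over the 6 libraries came closest to that of *Cdh3* were *Spats2l*, *Chchd10* and *Meg3*, with root mean square differences of 0.328, 0.519 and 0.537 among 11593 genes with a mean of at least 100 reads.

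*Cdh13* encodes T-cadherin, which is tied to the membrane by a lipid anchor and lacks the tail that binds catenins. The gene (ENSMUSG00000031841) runs from 118283733 to 119324921 on chromosome 8. It had 613, 7.47 and 89.0 normalised reads in WT 1, 2 and 3 and 427, 76.7 and 53.1 in CharmeKO 1, 2 and 3, the widest spread of the 9 genes. Only the libraries numbered 1 were high, in both genotypes, and WT 2 rests on 7 reads, for which the exact Poisson 95% interval is 2.81 to 14.4 reads (counting error only). The log2 fold change was 0.65 (SE 1.60, 95% interval -3.18 to 4.48, limma adjusted p = 0.9999), and it was -0.95 without WT 2. The profiles closest to it were those of *Tbx20*, *Gpm6a* and *Vgf*, with root mean square differences of 0.609, 0.679 and 0.700.

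The summed level of the mesothelial and epithelial markers was also highest in the libraries numbered 1. For the 8 of 12 listed genes with a row, the summed level was 310, 39.8 and 65.8 CPM (reads scaled to the library total) in WT 1, 2 and 3 and 345, 93.6 and 21.9 CPM in CharmeKO 1, 2 and 3. The uroplakin gene *Upk3b*, a mesothelial marker, had 4455, 322 and 651 normalised reads in WT 1, 2 and 3 and 4537, 656 and 297 in CharmeKO 1, 2 and 3. Both were highest in the libraries numbered 1, like *Cdh13*, *Cdh2* and *Cdh11*. *Cdh3* was not, with 216 and 344 normalised reads in WT 1 and CharmeKO 1, against 1531 in WT 2. *Upk3b* was lowest in CharmeKO 3, like *Cdh11* and *Cdh3*, whereas *Cdh2* was high there (28784) and *Cdh13* was lowest in WT 2. The part of these cells in the cadherin levels was not tested. E-cadherin (*Cdh1*), the classical cadherin of epithelia, stayed at 0 to 4 reads per library.

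*Cdh6*, a type II cadherin, was close to the detection limit, with 21, 2 and 10 reads in WT and 27, 3 and 2 in CharmeKO. Its log2 fold change of -0.49 (SE 1.15) had a 95% interval of -3.24 to 2.25, and no difference was detected. The SE was about that of *Cdh3* (1.14), which had more reads in every library. The profiles most like it were those of *Tnfrsf23*, *Abcb1a* and *Kazn* (root mean square differences of 0.293, 0.315 and 0.324).

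The composition of the classical cadherins was then compared, using the summed RPKM of *Cdh2*, *Cdh3*, *Cdh6* and *Cdh11*. The sum was 138, 62.1 and 56.9 RPKM in WT 1, 2 and 3 and 135, 58.4 and 96.7 in CharmeKO 1, 2 and 3. *Cdh2* made up 72.3%, 55.4% and 55.7% of it in WT and 72.4%, 68.0% and 90.6% in CharmeKO, and was the main cadherin in every library. The mean share was 61.2 ± 9.68% in WT and 77.0 ± 12.0% in CharmeKO (exact permutation p = 0.2, two-sided; with 3 libraries a group the test cannot go below 0.1).

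*Cdh11* held most of the rest, with 26.8%, 30.8% and 39.6% in WT and 26.2%, 25.3% and 9.12% in CharmeKO. Its share was lower in every CharmeKO library than in any WT library, but by only 0.605 percentage points between the nearest libraries, WT 1 and CharmeKO 1 (exact permutation p = 0.1, the smallest possible). *Cdh3* took 0.838%, 13.7% and 4.63% in WT and 1.35%, 6.68% and 0.247% in CharmeKO, so that its largest share was in WT 2.

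The log2 ratio of *Cdh2* to *Cdh11*, which does not depend on how the libraries are scaled, was 1.29, 0.70 and 0.35 in WT 1, 2 and 3 and 1.32, 1.28 and 3.17 in CharmeKO 1, 2 and 3. The groups overlapped, since CharmeKO 2 was just below WT 1. The mean was 0.78 ± 0.48 in WT and 1.93 ± 1.08 in CharmeKO. The difference of 1.14 had an exact permutation p of 0.2, where the smallest possible is 0.1. It was 0.035, 0.58 and 2.82 at replicate numbers 1, 2 and 3, which the exact test of 3 pairs gives p = 0.25, its smallest value. Without CharmeKO 3 the difference was 0.52.

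**Figure D3:**
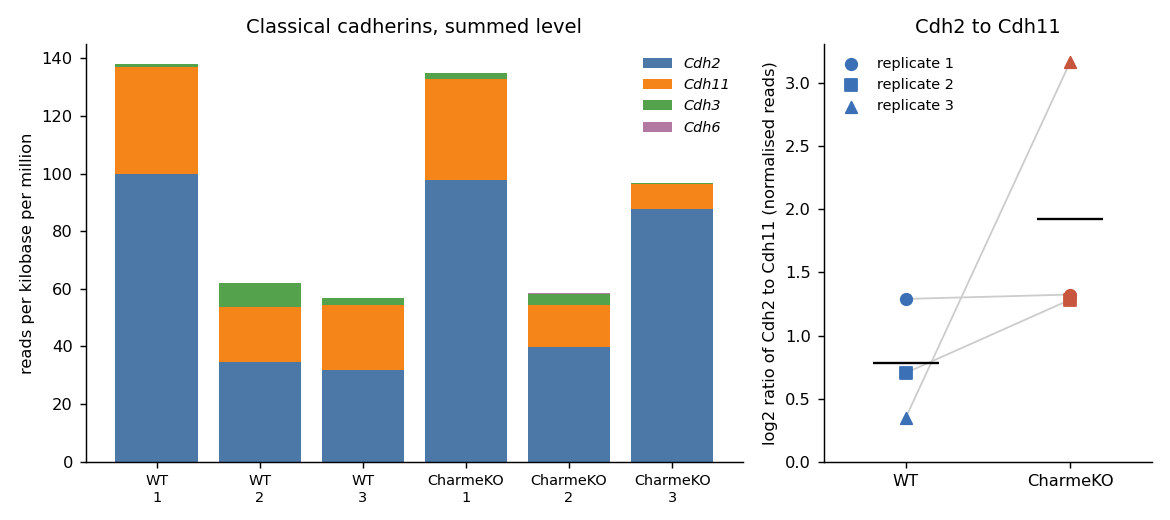
Left, summed level of the classical cadherins in each library in RPKM, stacked by gene. Right, log2 ratio of Cdh2 to Cdh11 in the 3 WT and 3 CharmeKO libraries, with grey lines between equal replicate numbers and black bars at the means of 0.78 and 1.93. *Cdh2* is the largest part in all 6 libraries, and CharmeKO 3 stands above the other 5 ratios at 3.17.

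The summed level of smooth muscle and pericyte markers differed most between the libraries numbered 3, where *Cdh11*, *Cdh3*, *Cdh2*, *Cdh6*, *Ctnnd1* and *Jup* also differed most. For the 10 listed genes it was 112.5, 185 and 730 CPM in WT 1, 2 and 3 and 86.9, 97.7 and 141 CPM in CharmeKO 1, 2 and 3. At all 3 replicate numbers, 7 of the 10 were lower in CharmeKO and 0 higher, beside 14% and 16.4% of all tested genes. Their median log2 fold change was -1.66, beside 0.0022 over all tested genes. Of the 3 with the highest level, *Cnn1* (calponin) had 14655 normalised reads in WT 3, against 741 in CharmeKO 3, and *Lmod1* (leiomodin) 3891 against 289.6. *Notch3*, a receptor of mural cells, differed the other way, with 1672 in WT 3 against 2834 in CharmeKO 3. The haematopoietic markers, 6 of 7 with a row, summed to 180, 97.4 and 38.1 CPM in WT and 384, 296 and 17.5 CPM in CharmeKO, with *Lyz2* (lysozyme) at 1012 normalised reads in WT 3, against 278 in CharmeKO 3, and *Cd68* at 170 against 93.1. *Ptprc*, which encodes CD45, was at 0 reads in CharmeKO 3, but the macrophage receptor gene *Csf1r* was about level there, at 358 normalised reads in WT 3 and 330 in CharmeKO 3. The part of these cells in the differences of the cadherins was not tested.

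Among the catenins, *Ctnnb1* (ENSMUSG00000006932, chromosome 9, 120929216 to 120960507) was the steadiest of the 9 genes. It had 22752, 26119 and 24470 normalised reads in WT 1, 2 and 3 and 21568, 30041 and 26845 in CharmeKO 1, 2 and 3, a range of 1.39-fold over all 6 libraries. Both libraries numbered 2 were the highest of their group. With limma its log2 fold change was 0.086 (SE 0.212), and the 95% interval of -0.42 to 0.59 was the narrowest of the 9.

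*Ctnnd1* (ENSMUSG00000034101, chromosome 2, 84600071 to 84650765) had 1286, 1256 and 2410 normalised reads in WT 1, 2 and 3 and 1271, 904 and 1100.2 in CharmeKO 1, 2 and 3. WT 3 stood above the other 5 libraries, and WT 1, WT 2, CharmeKO 1 and CharmeKO 3 lay close together. Its log2 fold change was -0.54 (SE 0.300, 95% interval -1.26 to 0.18), with the lowest unadjusted limma p of the 9 genes (0.117, adjusted p = 0.9999), and it was -0.23 without WT 3. The differences at replicate numbers 1, 2 and 3 were -0.017, -0.47 and -1.13. It was the only gene of the 9 in which genotype held the largest share of the variance over the 6 libraries (38.8%, against 33.4% for the replicate number).

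*Ctnna1* (chromosome 18, 35118859 to 35254779) had 9896 to 22612 normalised reads and *Jup* (chromosome 11, 100368958 to 100397763) 1415 to 3176. For both genes the libraries numbered 2 were the lowest in either genotype. The log2 fold changes were -0.035 for *Ctnna1* (SE 0.354) and -0.13 for *Jup* (SE 0.390), and both changed sign when single libraries were left out.

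The replicate number held the largest share of the variance for 8 of the 9 genes (88.9%), which is near the 78.2% of all tested genes. The median share over the 9 was 77.8% for the replicate number and 7.46% for genotype, beside 73.8% and 5.91% over all tested genes. The replicate number has 3 levels and genotype 2, which by itself gives the replicate number a larger share. The absolute log2 difference between genotypes had a median over the 9 genes of 0.0513 at replicate number 1, 0.371 at 2 and 1.13 at 3. Over all tested genes it was 0.169, 0.281 and 0.323.

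RefSeq promoter windows were examined for only 4 of the 9 genes, *Cdh6*, *Ctnnb1*, *Ctnnd1* and *Jup*. The promoters of the other genes were not examined, which does not mean that they have no window. For 3 catenin genes, 1 window each is shown. These genes are the steadiest (*Ctnnb1*), the one lower at all 3 replicate numbers (*Ctnnd1*) and the plakoglobin gene (*Jup*). Each line gives the 200 bases before a start site, 5′ to 3′ along the gene, from RefSeq on GRCm38.p6, with the CCAAT motif on either strand (CCAAT or ATTGG) in capitals. The windows are chr9:120933200-120933399 (plus strand), chr2:84650741-84650940 (minus) and chr11:100397791-100397990 (minus).
Ctnnb1: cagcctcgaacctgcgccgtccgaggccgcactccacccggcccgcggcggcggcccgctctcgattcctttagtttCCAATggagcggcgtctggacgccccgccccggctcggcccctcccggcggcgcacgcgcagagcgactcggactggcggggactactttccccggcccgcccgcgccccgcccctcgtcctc
Ctnnd1: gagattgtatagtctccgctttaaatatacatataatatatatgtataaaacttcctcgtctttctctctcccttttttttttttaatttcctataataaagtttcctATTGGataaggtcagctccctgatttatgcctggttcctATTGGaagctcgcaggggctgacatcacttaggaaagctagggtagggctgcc
Jup: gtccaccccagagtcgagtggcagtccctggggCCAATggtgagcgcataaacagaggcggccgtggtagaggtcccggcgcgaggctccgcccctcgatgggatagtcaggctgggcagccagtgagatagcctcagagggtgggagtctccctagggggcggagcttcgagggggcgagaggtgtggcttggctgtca
The windows shown hold 1, 2 and 1 CCAAT motifs, and their GC content is 76.5%, 38.0% and 66.5%, where the median of 32851 windows of this length is 53%. Of the 3 windows examined but not shown, the second of *Ctnnb1* (GC 74.5%) and that of *Cdh6* (54%) hold 0. The other of *Ctnnd1* (67.0%) holds 2. CCAAT or ATTGG was thus found in 4 of the 6 windows examined and in 29.3% of all windows. The motif was chosen after these sequences had been seen. The E-box CACCTG (or CAGGTG), the motif bound by Snail and ZEB repressors, is in 13.9% of all windows and in 0 of the 6 windows of *Cdh6*, *Ctnnb1*, *Ctnnd1* and *Jup*. A match or its absence says nothing of binding in these cells.

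The other genes of the cadherin and catenin pathways were read from 7 lists of 117 genes, of which 97 were tested. None passed the adjusted threshold in limma (0 genes) and 1 had an unadjusted p under 0.05. At all 3 replicate numbers, 20 of the 97 were lower (20.6%) and 6 higher (6.19%), beside 14% and 16.4% of all tested genes. With the replicate block, 9 of the 97 had an unadjusted p under 0.05 (9.28%, against 5.37% of all tested genes) and 0 an adjusted one. The groups did not overlap for 1 gene each of the other cadherins, the adherens junction partners, the destruction complex and the nuclear partners. The remaining lists had 0 such genes. Over all tested genes the share was 4.11%, so a lack of overlap does not set these genes apart.

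**Figure D4:**
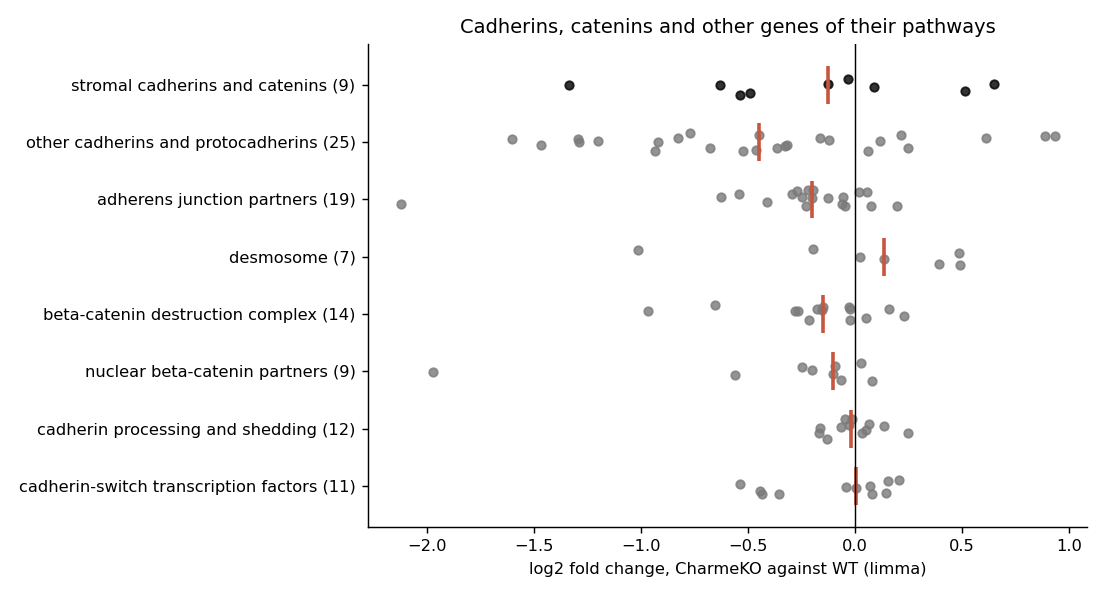
Log2 fold changes (limma, CharmeKO against WT) of the 9 cadherins and catenins and of the tested genes of 7 further lists, a point per gene with the number of genes in parentheses. Red bars mark the list medians, which lie between -0.45 for other cadherins and 0.13 for desmosome genes, and 0 points passed the adjusted threshold.

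Of the other cadherins and protocadherins, 25 of 35 genes were tested, with a median log2 fold change of -0.45; 5 were lower and 1 higher at all 3 replicate numbers. The lowest p was that of *Pcdh18*, a protocadherin, with 1696, 1596 and 1794 normalised reads in WT 1, 2 and 3 and 1516, 537 and 876 in CharmeKO 1, 2 and 3. Its groups did not overlap, and the log2 fold change was -0.92 (SE 0.368, unadjusted p = 0.0430, limma adjusted p = 0.9999). *Fat2*, a giant atypical cadherin, had 2.61 to 18.2 normalised reads and a log2 fold change of -1.29 (SE 0.691).

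Of the partners of adherens junctions, 19 of 21 were tested, with a median of -0.20 and 5 lower at all 3 replicate numbers. *Ctnnd2*, which encodes δ-catenin, a relative of p120-catenin, had 923, 55.5 and 595 normalised reads in WT 1, 2 and 3 and 331, 20.6 and 51.3 in CharmeKO 1, 2 and 3. Each CharmeKO library was below the WT library of equal number, by -1.48, -1.38 and -3.51 on the log2 scale, although the groups overlapped. The log2 fold change was -2.12 (SE 1.36, limma adjusted p = 0.9999, and 0.7997 with the replicate block). In DESeq2 with the block it was called, with an adjusted p of 0.0115, and it was the only such call among the 97 genes, where 0.401% of all tested genes were called. On simulated data, which held no effect of the replicate number, DESeq2 without the block made many false calls. DESeq2 with the block was not tried, so how far this call can be trusted is not known. *Vezt*, which encodes the junction protein vezatin, was at -0.20 (SE 0.159) and its groups did not overlap.

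All 14 genes of the destruction complex list, which marks β-catenin for degradation, were tested, with a median of -0.15, 5 lower and 2 higher at all 3 replicate numbers. *Apc*, its scaffold, had 5496, 5099 and 5044 normalised reads in WT 1, 2 and 3 and 4190, 3758 and 4999 in CharmeKO 1, 2 and 3. It was at -0.28 (SE 0.164), with groups that did not overlap. *Apc2* was at -0.66 (SE 0.405). Of the 9 nuclear partners of β-catenin (median -0.11), *Tcf7* was at -0.56 (SE 0.394) and *Lef1* at -1.98 (SE 1.48). *Lef1* had few reads, with 16.7, 0 and 36.3 normalised reads in WT 1, 2 and 3 and 4.81, 0 and 0.87 in CharmeKO 1, 2 and 3.

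The lists of genes that process or switch cadherins had the medians nearest to 0. The 12 processing and shedding genes had a median of -0.020 and ranged from -0.17 to 0.25; *Numb*, an endocytic adaptor, and *Psenen*, a subunit of γ-secretase, were at these ends. Of the transcription factors of the cadherin switch, 11 of 15 were tested, with a median of 0.0018. Among them *Zeb1*, a repressor of E-cadherin, had 3478, 4691 and 4511 normalised reads in WT 1, 2 and 3 and 2990, 2727 and 3636 in CharmeKO 1, 2 and 3. It was at -0.44 (SE 0.193, limma unadjusted p = 0.0602), and *Snai1* was at -0.36 (SE 0.179). Both were lower at all 3 replicate numbers. The desmosome list (7 of 11 tested) had a median of 0.13, with *Pkp2*, which encodes plakophilin-2, at -1.02 (SE 0.588) and *Evpl*, which encodes envoplakin, at 0.39 (SE 0.435).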

How the data were processed

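Poly(A) RNA libraries had been aligned with STAR (stated build GRCm39, Ensembl release 87), whose reverse-strand gene counts the authors filtered for low counts and scaled by DESeq2 size factors. The deposited signal is therefore a scaled read number for each gene and library; 0 columns were left unused. Versions of STAR and DESeq2 are not given in the sources used here. The table gives no coordinates, so positions and exon lengths (union of exons) come from the GENCODE M21 annotation of GRCm38, matched by Ensembl ID.

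Reads were recovered by dividing each library by its smallest positive value: 100% of 116676 values came out whole (tolerance 1e-06, largest deviation 6.3e-09). A count of 0 allows up to 3 reads, which is 0.0641 to 0.0783 CPM. Such limits and intervals cover counting error only.

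The main test was limma (3.58.1, R 4.3.3) on log2(value + 1) with the variance trended on expression, genotype as the only term, over genes reaching 10 reads in 2 or more libraries, with Benjamini-Hochberg adjustment and a threshold of 0.05. The design had allowed for raw counts, for which edgeR would have been the main test. Fold changes on this scale are understated for genes with few reads. edgeR 4.0.16 and DESeq2 1.42.0 on the recovered reads were alternatives. Ratios and shares were compared with two-sided exact permutation tests. The labels give separate samples, so p-values measure the spread between these libraries, which may be partly technical.

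Deviations from the group means correlated with r = 0.762, 0.514 and 0.217 for WT and CharmeKO libraries numbered 1, 2 and 3, each over the 0.1 needed to treat the numbers as pairs, and with -0.643 to 0.222 for unequal numbers. The replicate number was therefore used as a block where stated, although the value of number 3 was below the highest for unequal numbers. The fits were tested on simulated data, drawn at the spread of these libraries but without any effect of the replicate number. With the block limma missed all of the changed genes, but such data cannot show how the block performs on these libraries. Without the block limma and edgeR missed most of the changed genes, and DESeq2 made many false calls. A lack of calls therefore does not show that genes did not differ.

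The genes and lists were chosen with earlier results of these data known. Genes named from other lists were those past the threshold or, failing these, the 2 with the lowest p; for marker lists up to 3 with the highest level; and for the 3 most variable cadherins the 3 genes with the closest profile. *Cdh1*, *Ptprc* and *Pecam1* were added after their values had been seen. Plots were drawn with matplotlib 3.10.9.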

Additional observations from a re-analysis of the deposited data

How the results depend on the processing

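The number of the 9 genes past the adjusted threshold was 0 in all 17 alternatives. The number over all tested genes was 0 in 15 of them; DESeq2 called 8 genes, and 64 once the replicate block was added; the cause was not tested. The replicate block changed no other call, and in limma it left 0 of the 9 genes called.

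*Cdh2*, *Cdh3*, *Cdh11* and *Ctnnd1* kept their sign in all 17 alternatives, but not their size. Leaving out 1 library at a time, *Cdh2* ranged from 0.22 (without WT 3) to 1.05 (without WT 1), *Cdh11* from -1.21 (without CharmeKO 1) to -0.17 (without CharmeKO 3), *Cdh3* from -2.15 to -0.18 (without CharmeKO 2 and 3) and *Ctnnd1* from -0.70 to -0.23. The others changed sign. *Cdh13* was at -0.35 with edgeR and -0.35 with DESeq2, and from -0.95 to 2.14 by leaving out libraries, and *Ctnna1* was at 0.030 with edgeR and 0.021 with DESeq2, and from -0.28 to 0.32. *Cdh6* ranged from -1.51 to 0.14, *Ctnnb1* from -0.021 to 0.22 and *Jup* from -0.50 to 0.079. *Cdh6* and *Cdh13* have no value when 10 reads are required in every library.

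The difference in the log2 ratio of *Cdh2* to *Cdh11* ran from 0.52 to 1.47 when each library was omitted, that of *Cdh2* to *Ctnnb1* (0.43, exact permutation p = 0.9) from 0.016 to 1.02, and that of *Cdh11* to *Ctnnb1* (-0.72, exact permutation p = 0.5) from -1.43 to -0.23. The difference in the *Cdh2* share of 15.9 percentage points was 14.8 with the longest transcript as gene length and 9.05 to 21.4 when each library was omitted, settings chosen after seeing the data. Few reads add counting error for *Cdh6*, with 2 to 27 reads per library, and for *Cdh13* in WT 2.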

Other observations

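Some rare cadherins were highest in the libraries numbered 1 of both genotypes. All genes named here were chosen after their values were seen. *Cdh19*, a cadherin known from Schwann cells, had 68.9, 4.27 and 6.59 normalised reads in WT 1, 2 and 3 and 82.7, 1.97 and 1.74 in CharmeKO 1, 2 and 3. *Cdh8*, a type II cadherin of neural tissue, had 47.3 and 55.8 in WT 1 and CharmeKO 1 and at most 4.92 in the other 4 libraries. The Schwann cell markers summed to 12.0 and 15.8 CPM in the libraries numbered 1 and to 0.705 to 2.78 CPM in the others. VE-cadherin (*Cdh5*), the cadherin of endothelium, had 44.3, 0 and 2.197 normalised reads in WT and 33.7, 25.6 and 0 in CharmeKO.

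The protocadherins *Pcdh10* and *Pcdh19* were among the most variable genes of the lists. *Pcdh19* had 1596, 77.9 and 1886 normalised reads in WT 1, 2 and 3 and 1303, 173 and 85.2 in CharmeKO 1, 2 and 3. *Pcdh10* had 312, 10.7 and 631 in WT and 187, 80.6 and 4.35 in CharmeKO. Both were high in WT 1, WT 3 and CharmeKO 1 and low in the other 3 libraries. The giant cadherin *Fat1* had the most reads of the other cadherins, with 42699 to 77399 normalised reads and groups that overlapped.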
